A study of Mus musculus with 6 samples.

Results

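Expression of the carbonic anhydrases was examined in whole hearts of 8-week-old mice, in 3 DNMTs-Tg animals (replicates 1, 5 and 6) and 3 wild-type animals (replicates 1, 4 and 6), with 1 Affymetrix array per mouse. DNMTs-Tg mice carry the de novo DNA methyltransferase DNMT3A2 and its partner DNMT3L, expressed ectopically in many somatic tissues. Per the labels, they came from a cross of a female of a Ddx4-cre line on the FVB strain with a floxed male. The promoter of the transgenes and the strain of the wild-type mice are not stated in the labels. The study asked which heart genes might be silenced by the added methyltransferases, and no methylation measurement was analysed here. The members are the 10 genes Car2, Car3, Car4, Car5b, Car8, Car9, Car11, Car12, Car13 and Car14, measured by the 21 of 45101 probe sets whose platform annotation names only that gene. The family was chosen by its signals in this same comparison of DNMTs-Tg with wild-type hearts on these 6 arrays. The members' differences are therefore given as a description, without p-values.

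Carbonic anhydrases are zinc enzymes that interconvert carbon dioxide and water with bicarbonate and a proton, and so buffer cells and supply substrate to bicarbonate and proton transporters. Car2, Car3 and Car13 encode cytosolic enzymes, Car5b a mitochondrial one, and Car4, Car9, Car12 and Car14 enzymes anchored in membranes with the active site outside the cell or in a lumen. Car8 and Car11 encode related proteins that have lost catalytic activity. In heart, membrane-bound forms are known from the sarcolemma, the sarcoplasmic reticulum and the capillary endothelium.

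The transgene separated the groups, with Dnmt3l log2 signals of 12.19 to 12.38 in DNMTs-Tg and 5.17 to 5.48 in wild-type hearts. The labels call 5 mice female and wild-type replicate 6 male. The Y-linked gene Eif2s3y, however, lay at 9.41 to 9.52 on 5 arrays and at 3.32 on that of wild-type replicate 4, where Xist stood at 10.10 against 4.52 to 4.96 elsewhere. DNMTs-Tg replicate 1 lay farthest from the wild-type arrays on the first principal component over all probe sets, which held 58.0% of the variance (-82.0, against -26.7 and -3.30 for replicates 5 and 6 and 35.6 to 40.6 for the wild-type arrays). Detection calls were not used. A probe set is called dim on an array where it lay at or below that array's 40th percentile, which was 4.64 to 4.72 (log2). By this measure 11 of the 21 probe sets were dim on all 6 arrays, 6 were above it on all 6, and 10 were above it on at least 3. Signals of different probe sets cannot be compared as levels, so each is compared only with itself across mice.

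Car3 stood out among the members, Car4 was modestly lower, and the other 8 genes showed small or no separation. In limma's fit over all 45037 non-control probe sets, 3 of the 21 passed an adjusted p of 0.05 as lower in DNMTs-Tg hearts, 2 of them for Car3 and 1 for Car4, against 1.31% of all probe sets in that direction and 2.11% in either. As higher, 0 of the 21 passed, against 0.799%, and at an unadjusted p under 0.05 there were 9 of the 21 lower and 0 higher, against 19.2% of all probe sets in either direction. All DNMTs-Tg arrays lay below all wild-type arrays for 9 of the 21, against 14.9% of all probe sets, and above them for 0, against 11.7% (26.5% in either direction). Since the comparison chose the family, nothing is read from these counts. The median difference (DNMTs-Tg minus wild-type, log2) was -0.26 over the 21 and -0.02 over all probe sets. A difference of at least 2-fold was seen for 1 member probe set, a fall, and for 1.06% of all probe sets in that direction.

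**Figure D1:**
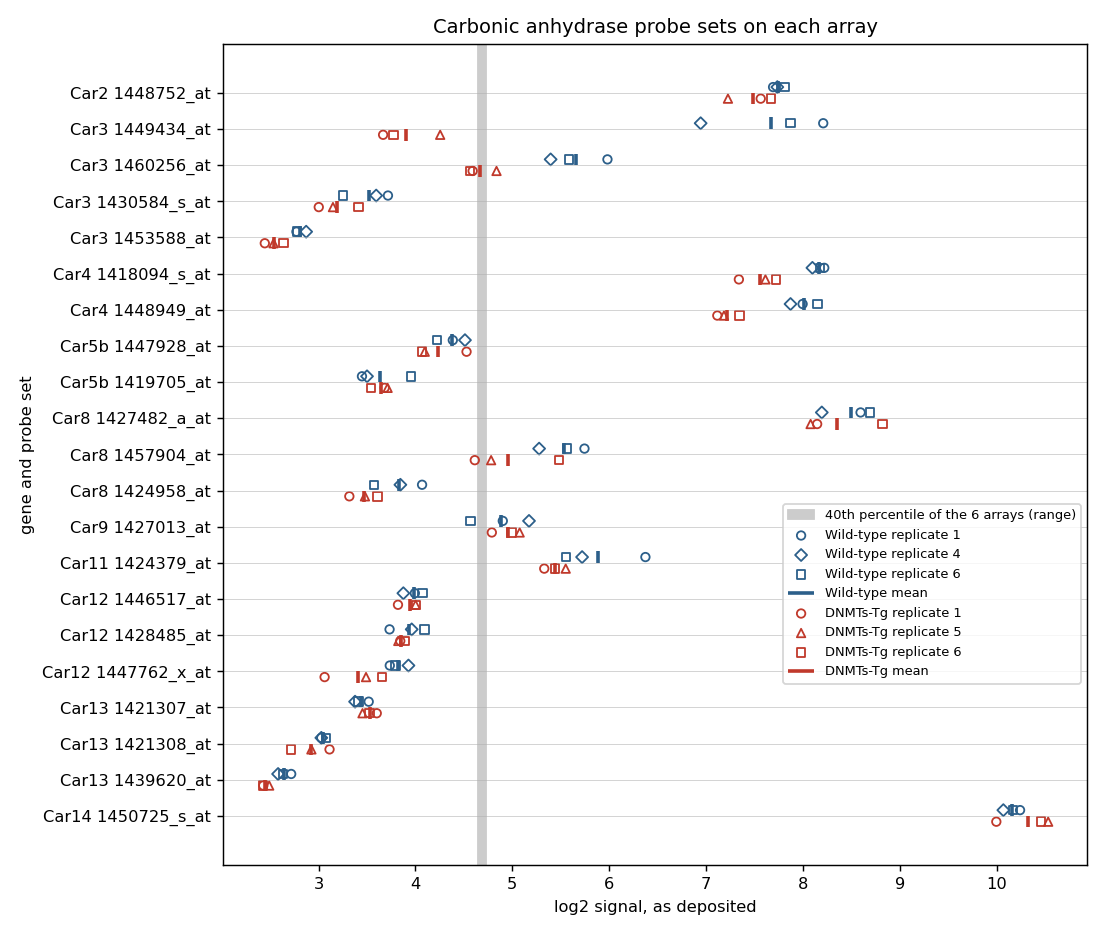
Log2 signal of each of the 21 carbonic anhydrase probe sets (rows) on each of the 6 arrays, wild-type in blue and DNMTs-Tg in red, with a bar at each group mean and a grey band over the 40th percentiles of the arrays, 4.64 to 4.72. The 3 DNMTs-Tg values of Car3 probe set 1449434_at lie left of the band at 3.67 to 4.25, and its wild-type values right of it at 6.94 to 8.21.

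Among the cytosolic enzymes, Car3 encodes a form with low carbon dioxide hydration activity that is abundant in slow skeletal muscle, liver and fat. On probe set 1449434_at its log2 signal was 8.21, 6.94 and 7.87 in wild-type replicates 1, 4 and 6. It was 3.67, 4.25 and 3.77 in DNMTs-Tg replicates 1, 5 and 6. The groups were far apart, the transgenic arrays were all dim, and the wild-type arrays differed among themselves by up to 1.26, with replicate 4 the lowest. The group means were 7.67 ± 0.65 (SD, n = 3) and 3.90 ± 0.31 (SD, n = 3), a difference of -3.77 ± 0.31 (log2, SE). Because the DNMTs-Tg signal lay below the 40th percentile, its size there is only bounded, and Car3 was at least 7.91-fold lower, with that percentile as a floor set by the analysis. Whether the strain of the wild-type mice, which is not stated, bears on this difference was not tested. With the 60th percentile as the floor the bound was 3.04-fold. Without DNMTs-Tg replicate 1 the difference was -3.66 and without wild-type replicate 4 it was -4.14. This probe set passed limma's threshold in all 6 fits that left out 1 array. These fits reuse the comparison that chose the family, so nothing is read from the passes.

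The other probe sets of Car3 differed in the same direction and by much less. Probe set 1460256_at read 5.98, 5.39 and 5.58 in wild-type replicates 1, 4 and 6 and 4.59, 4.84 and 4.56 in DNMTs-Tg replicates 1, 5 and 6. Again the groups did not overlap and replicate 4 was the lowest wild-type array, but the difference was -0.99 ± 0.17 (SE), and only 1 DNMTs-Tg array, that of replicate 5, was above the 40th percentile. Its call was lost without DNMTs-Tg replicate 5 (-1.08), wild-type replicate 1 (-0.83), wild-type replicate 4 (-1.12) or wild-type replicate 6 (-1.02). The remaining probe sets, 1430584_s_at and 1453588_at, were dim on all 6 arrays and differed by -0.33 ± 0.15 and -0.27 ± 0.09 (SE). The 4 probe sets of Car3 thus gave the same sign and very different sizes, and which part of the transcript each one reads was not examined.

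Car2, the fast and widely expressed cytosolic isoform that is also abundant in red blood cells, read 7.69, 7.73 and 7.81 in wild-type replicates 1, 4 and 6. In DNMTs-Tg replicates 1, 5 and 6 it read 7.56, 7.22 and 7.67. All transgenic arrays were below all wild-type ones, by a narrow margin in replicate 6, and the difference was -0.26 ± 0.15 (SE), which did not pass. Car13, a cytosolic isoform found at low levels in many tissues, had 3 probe sets, all dim on every array, with differences of 0.09, -0.12 and -0.20. In the protein-coding order of the mouse annotation GRCm38.p6, Car13, Car1, Car3 and Car2 follow each other directly on chromosome 3. Car1, the red-cell isoform and no member here, read 3.68 to 4.12 on its 1 probe set, dim on all 6 arrays, with a difference of -0.05. Of these neighbours of Car3 only Car2 was above the 40th percentile, so a fall of Car1 or Car13 could not have been seen.

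**Figure D2:**
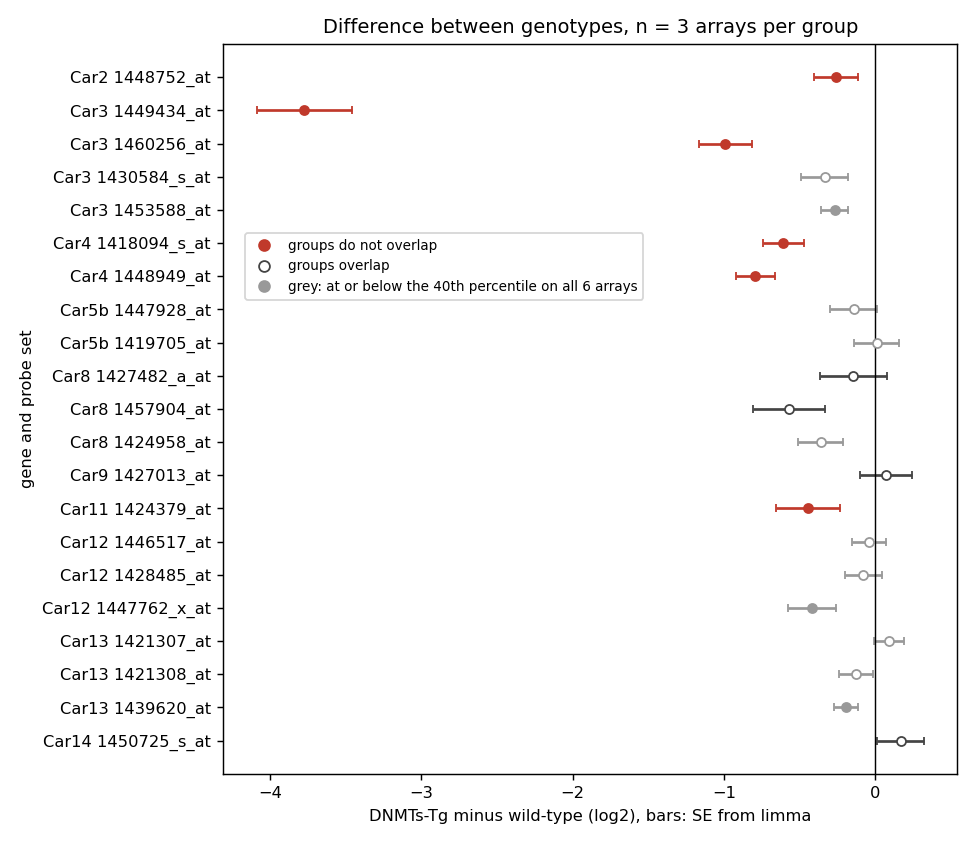
Difference between DNMTs-Tg and wild-type hearts (log2) with its SE from limma for each of the 21 probe sets, n = 3 arrays per group. Filled points mark groups that do not overlap and grey points probe sets that were dim on all 6 arrays. Car3 probe set 1449434_at lies at -3.77, and all others lie between -0.99 and 0.17.

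Car5b, the mitochondrial isoform, had 2 probe sets, both dim on all arrays, with differences of -0.14 ± 0.16 and 0.01 ± 0.15 (SE) and overlapping groups. Car5b lies on the X chromosome. Wild-type replicate 4, the array with Xist signal, read 4.51 and 3.50 on these probe sets, within the ranges of 4.07 to 4.53 and 3.45 to 3.96 spanned by the other 5 arrays.

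Of the membrane enzymes, Car4 separated the genotypes on both of its probe sets. Car4 encodes a lipid-anchored enzyme of capillary endothelium and heart muscle membranes. Probe set 1448949_at read 7.99, 7.87 and 8.15 in wild-type replicates 1, 4 and 6 and 7.11, 7.18 and 7.34 in DNMTs-Tg replicates 1, 5 and 6. Probe set 1418094_s_at, whose suffix marks probes shared among transcripts, read 8.22, 8.10 and 8.18 in the same wild-type arrays. On it the DNMTs-Tg arrays read 7.34, 7.61 and 7.72. No transgenic array reached the lowest wild-type value on either probe set. The differences were -0.79 ± 0.13 and -0.61 ± 0.14 (SE), or 1.73-fold and 1.52-fold lower. The former passed limma's threshold over all probe sets and the latter did not. The latter passed only in the fit of 1 probe set a gene over 13634 genes, which uses the same 6 arrays. Without DNMTs-Tg replicate 1 they were -0.74 and -0.50. The call of 1448949_at was lost without DNMTs-Tg replicate 5 (-0.78), wild-type replicate 1 (-0.80), wild-type replicate 4 (-0.86) or wild-type replicate 6 (-0.72). Each of these fits draws on the arrays by which the family was chosen, so no call given here is separate support for a fall of Car4. In whole hearts fewer cells of a type and less RNA per cell cannot be told apart.

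Capillary endothelium is known for Car4. Of 13 endothelial markers, not all of them particular to capillaries, 0 passed as lower and 1 as higher. This was Vwf, which encodes von Willebrand factor and rose by 1.39 ± 0.21 (SE, limma, adjusted p = 0.0177), with 9.75 to 10.20 in DNMTs-Tg and 8.10 to 8.80 in wild-type hearts. Its call was lost without DNMTs-Tg replicate 5 (adjusted p = 0.0629) or wild-type replicate 1 (0.0544) or 4 (0.0583). The endothelial list had a median difference of 0.05, against 0.0055 over all genes tested. Its summed signal (log2 of the sum of linear signals) was 15.17 to 15.35 in DNMTs-Tg and 15.10 to 15.18 in wild-type arrays. Its brightest genes were Fabp4, with means of 13.70 in DNMTs-Tg and 13.59 in wild-type arrays, and Cd36, with 13.67 and 13.56. Fabp4 is in the adipocyte list as well, and the sum says little of the dimmer markers. The part of capillary cells in the Car4 difference was not tested.

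Car9 and Car12 encode transmembrane enzymes known as targets of hypoxia signalling. Car9 read 4.90, 5.17 and 4.57 in wild-type replicates 1, 4 and 6 and 4.79, 5.07 and 4.99 in DNMTs-Tg replicates 1, 5 and 6, close to the 40th percentile. The groups overlapped, and the difference was 0.07 ± 0.17 (SE), from -0.08 to 0.22 with 1 array left out. The 3 probe sets of Car12 were dim on all arrays and differed by -0.04, -0.08 and -0.42, the last with groups that did not overlap. Car14, the transmembrane isoform of the heart muscle cell surface and sarcoplasmic reticulum, read 10.24, 10.07 and 10.16 in wild-type and 9.99, 10.53 and 10.45 in DNMTs-Tg hearts, in the same replicate order. DNMTs-Tg replicate 1 was the lowest of all 6 and replicate 5 the highest. The difference was 0.17 ± 0.15 (SE), and its sign was kept in every fit without 1 array, from 0.07 to 0.33.

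The study's question concerns methylation of CpG sites, so upstream sequence is shown for the membrane enzyme whose signal was lower, Car4, beside Car9, whose groups overlapped. Both are the 250 bases before the RefSeq start in build GRCm38.p6, plus strand, with each CpG in capitals. Car4 lies at chr11:84957504-84957753 and Car9 at chr4:43506776-43507025.
Car4: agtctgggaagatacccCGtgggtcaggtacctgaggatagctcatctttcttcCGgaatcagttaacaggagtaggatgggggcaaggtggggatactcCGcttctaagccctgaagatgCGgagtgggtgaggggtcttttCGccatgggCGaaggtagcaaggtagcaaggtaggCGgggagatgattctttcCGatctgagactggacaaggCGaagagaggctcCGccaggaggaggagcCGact
Car9: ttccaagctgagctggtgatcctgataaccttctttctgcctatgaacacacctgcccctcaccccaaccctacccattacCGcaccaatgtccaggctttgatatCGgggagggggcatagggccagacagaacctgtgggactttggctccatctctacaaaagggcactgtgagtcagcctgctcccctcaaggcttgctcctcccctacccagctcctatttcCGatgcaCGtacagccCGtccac
The Car4 window held 11 CpGs, and 35.6% of 32851 RefSeq windows of this length held at least as many. The Car9 window held 5 CpGs, and 55.6% held at least as many. The letters ACGTG, the core of the hypoxia response element, were searched on both strands. They occurred once in the Car9 window, beginning 18 bases before the start, and once in the Car14 window, 7 bases before the start. Both occurrences lie on the strand opposite to that of the gene. The letters did not occur in the windows of Car4, Car5b, Car11 or Car12. The windows of Car11, Car12 and Car14 are not at the outermost start of the gene. Of all windows 16.6% held the letters. RefSeq windows were matched for 6 of the 10 genes. The set of windows used held none for Car2, Car3, Car8 and Car13, so no upstream sequence of Car3 is shown. CpG counts were 12 for Car5b, 6 for Car12, 10 for Car14, and 9 and 4 for the alternative starts of Car11.

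Of the related proteins without catalytic activity, Car8 had overlapping groups on all 3 of its probe sets and Car11 had groups that did not overlap, and neither passed. Car8, whose product binds the inositol trisphosphate receptor, had 3 probe sets. On 1427482_a_at it read 8.59, 8.19 and 8.69 in wild-type replicates 1, 4 and 6 and 8.14, 8.08 and 8.82 in DNMTs-Tg replicates 1, 5 and 6. DNMTs-Tg replicate 6 was the highest of all arrays, so the groups overlapped, and the difference was -0.14 ± 0.22 (SE). On 1457904_at the same arrays read 5.74, 5.28 and 5.57 against 4.61, 4.78 and 5.48, a difference of -0.57 ± 0.24 (SE), with DNMTs-Tg replicate 6 inside the wild-type range. Without that array the difference was -0.83 and passed, in 1 of the 6 fits that left out 1 array. These fits reuse the comparison that chose the family, so nothing is read from the pass. The third, 1424958_at, was dim on all arrays and differed by -0.36. All 3 had DNMTs-Tg replicate 6 above replicates 1 and 5. Car11, known from brain, read 6.37, 5.72 and 5.55 in wild-type replicates 1, 4 and 6 and 5.33, 5.55 and 5.44 in DNMTs-Tg replicates 1, 5 and 6. The groups did not overlap, but wild-type replicate 6 lay level with DNMTs-Tg replicate 5 to 2 decimals. The difference of -0.44 ± 0.21 (SE) shrank to -0.20 without wild-type replicate 1, more than 1.5 times smaller.

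Car3 is abundant in fat, so adipocyte markers were read beside it. Adipoq, which encodes the adipocyte hormone adiponectin, was chosen here after its values were seen. It read 5.60, 4.00 and 4.99 in wild-type replicates 1, 4 and 6, and 2.96, 3.54 and 3.37 in DNMTs-Tg replicates 1, 5 and 6. It was dim on all arrays but those of wild-type replicates 1 and 6. Its groups did not overlap, and its wild-type arrays stood in the same order as those of Car3, replicate 1 highest and replicate 4 lowest. The difference was -1.57 ± 0.36 (SE) and did not pass over all probe sets (limma, adjusted p = 0.0722). Of the 13 adipocyte markers measured, 4 were dim on all 6 arrays, namely Cidec, Lep, Pck1 and Ucp1. Cfd, Plin1 and Adrb3 were not analysed here. Of the 8 markers tested after the filter 0 passed, 0 had an unadjusted p under 0.05 and the median difference was -0.0019. The 2 with the smallest p, the lipid droplet genes Plin4 (0.44, limma, adjusted p = 0.247) and Cidea (0.30, adjusted p = 0.553), lay above 0. The summed adipocyte signal was 13.98 to 14.31 in DNMTs-Tg and 13.91 to 14.02 in wild-type arrays, but most of these genes are also expressed in heart muscle or endothelium. The part of fat RNA in the Car3 difference was not tested.

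Markers of skeletal muscle, another rich source of Car3, were read beside it too. The list holds no slow-fibre marker, so the slow fibres in which Car3 is abundant were not read. The fast-fibre markers Myh1, Myh4, Tnnt3 and Pvalb and the muscle factors Myod1 and Myog were dim on all 6 arrays, so a fall of these could not have been seen. Of 8 markers tested 0 passed and 2 had an unadjusted p under 0.05 (26.0% of all genes did), both higher, Casq1 at 1.18 (limma, adjusted p = 0.106) and Mybpc2 at 1.22 (adjusted p = 0.111). Groups did not overlap for 3 of the 8 as higher and for 2 as lower, the latter being Tnni2 (-0.47) and Mylpf (-0.26), fast-fibre genes chosen after their values were seen. The summed signal was 11.25 to 11.50 in DNMTs-Tg and 10.07 to 10.97 in wild-type arrays. Its brightest genes were Casq1, with means of 10.71 in DNMTs-Tg and 9.53 in wild-type arrays, and Mybpc2, with 9.31 and 8.09. The sum therefore says little of the dimmer markers. The part of skeletal muscle RNA in the Car3 difference was not tested. Red-cell markers, read beside Car2, passed in 0 of 4 cases, with 0 at an unadjusted p under 0.05, and Klf1, a transcription factor of red-cell precursors, differed by -0.28 (limma, adjusted p = 0.281). Alas2, their heme synthesis enzyme (0.52, adjusted p = 0.757), ranged from 6.38 in DNMTs-Tg replicate 5 to 10.02 in replicate 6. The red-cell sum was 7.76 to 10.29 in DNMTs-Tg and 8.31 to 9.47 in wild-type arrays. The DNMTs-Tg arrays stood in the same order for Alas2 and Car2, replicate 5 lowest and replicate 6 highest. Car2 in DNMTs-Tg replicate 6 (7.67) lay below all wild-type arrays. Wild-type replicates 1, 4 and 6 read 9.10, 7.43 and 7.35 for Alas2. For Car2 they stood in the reverse order over a narrow range, at 7.69, 7.73 and 7.81. The part of blood in Car2 was not tested.

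Markers of the other heart cell types differed in both directions. Cardiomyocyte markers passed in 0 of 12 cases, with 4 at an unadjusted p under 0.05 and a sum of 17.69 to 17.83 in DNMTs-Tg and 17.80 to 17.81 in wild-type arrays. Of the 12, 8 lay below 0 with a median of -0.11, and groups did not overlap for 6 as lower and 3 as higher, against 34.9% of all genes in either direction. Actn2 (0.41, limma, adjusted p = 0.0568) and Mybpc3 (0.34, adjusted p = 0.0606) had the smallest p. Macrophage markers passed in 0 of 13 cases, with 1 at an unadjusted p under 0.05, and averaged 1.37 above the wild-type mean in DNMTs-Tg replicate 1 against -0.10 and -0.0041 in replicates 5 and 6. The chemokine receptor gene Ccr2 (1.44, limma, adjusted p = 0.0509) and the scavenger receptor gene Cd163 (0.79, adjusted p = 0.252) had the smallest p. Of 12 fibroblast markers 9 lay above 0, with a median of 0.52, 6 had an unadjusted p under 0.05, and groups did not overlap for 4 as higher and 2 as lower. Col1a2 (1.01) and Postn (1.84), matrix genes chosen after their values were seen, were among the 4. The 1 that passed was Ogn, a matrix proteoglycan gene, which fell by 0.98 (limma, adjusted p = 0.0284). The list averaged 1.24, 0.26 and 0.13 in the same replicates, and -0.19 to 0.25 in wild-type arrays. The call of Ogn was lost without DNMTs-Tg replicate 5 (adjusted p = 0.0629) or wild-type replicate 1 (0.118), 4 (0.0983) or 6 (0.114). Schwann cell and neuronal markers passed in 0 of 7 cases, with 0 at an unadjusted p under 0.05, Pmp22 (0.38, limma, adjusted p = 0.299) and Dbh (-0.29, adjusted p = 0.334) having the smallest p. Without DNMTs-Tg replicate 1, Car3 differed by -3.66 and Car4 by -0.74 (1448949_at). The part of other cell types in the member differences was not tested.

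The genes whose values over the 6 arrays were closest to those of Car3 were Rps4l, Dcaf12l1, Dhdh, Fah and Apeh. Closeness was the root mean square difference between values from which each gene's own mean over the 6 arrays had been subtracted, over 13634 genes less the members. It was 0.29 (log2) for the ribosomal protein gene Rps4l, 0.62 for Dcaf12l1, 0.65 for the dehydrogenase gene Dhdh, 0.69 for the tyrosine breakdown gene Fah and 0.70 for the peptidase gene Apeh. The median over all genes was 1.94, which mostly reflects the size of Car3's own difference. Genes chosen as close to Car3 are bound to be lower in DNMTs-Tg arrays. Rps4l read 8.39, 7.00 and 8.06 in wild-type replicates 1, 4 and 6 and 4.48, 4.69 and 4.52 in DNMTs-Tg replicates 1, 5 and 6. Like Car3, Rps4l and Fah were lowest among the wild-type arrays in replicate 4, and Dcaf12l1, Dhdh and Apeh were not. Their chromosomes are 6 for Rps4l, X for Dcaf12l1, 7 for Dhdh and Fah, and 9 for Apeh, and none shares chromosome 3 with Car3.

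**Figure D3:**
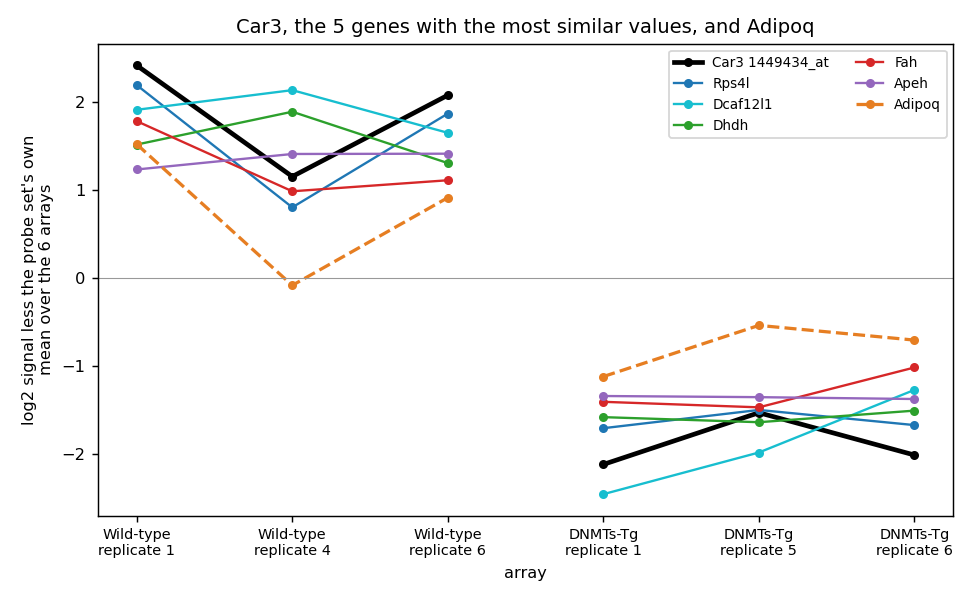
Log2 signal of Car3 (black, probe set 1449434_at), the 5 genes closest to it and Adipoq (dashed) on each array, less each probe set's own mean over the 6 arrays; lines join the values of a gene within a group and imply no order. All 7 lie lower in DNMTs-Tg arrays, which for the 5 genes follows from their choice by closeness. Adipoq was chosen after its values were seen, so nothing is read from its likeness to Car3. Car3, Rps4l, Fah and Adipoq are lowest among the wild-type arrays in replicate 4.

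The genes that work beside carbonic anhydrases were counted over lists of transporters, enzymes and hypoxia genes. Of 76 listed genes 60 were tested, and 3 rose and 3 fell (limma, adjusted p under 0.05), or 6 of 60, against 5.39% of all 13634 genes (2.24% higher and 3.15% lower). Over all genes, 34.9% had groups that did not overlap. Among them, 0 of 10 bicarbonate transporters passed, with 1 at an unadjusted p under 0.05.

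Of the carbonic anhydrases outside the member list, only Car7 and Car15 were above the 40th percentile on at least 3 arrays. Neither separated the genotypes. The others, Car1, Car5a, Car6 and Car10, were dim on all or most arrays, so a fall of these could not have been seen. Car1, Car5a, Car6, Car7, Car10 and Car15 had 9 probe sets, of which 0 passed over all probe sets and 0 had groups that did not overlap, with differences of -0.21 to 0.11. Car7, a cytosolic isoform known from brain, read 7.95 ± 0.29 in DNMTs-Tg and 7.95 ± 0.16 in wild-type hearts (SD, n = 3 each). Car15, a lipid-anchored isoform, read 6.07 ± 0.28 and 6.06 ± 0.11.

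Among the bicarbonate transporters the smallest p belonged to Slc26a6, the chloride-bicarbonate exchanger of heart muscle. It read 8.09, 7.61 and 8.39 in wild-type replicates 1, 4 and 6 and 6.66, 7.18 and 7.76 in DNMTs-Tg replicates 1, 5 and 6. The groups overlapped, with DNMTs-Tg replicate 6 above wild-type replicate 4, and the difference of -0.83 ± 0.31 (SE) did not pass (limma, adjusted p = 0.150). Slc4a2, an anion exchanger, differed by 0.35 ± 0.23 (adjusted p = 0.359), with DNMTs-Tg replicate 1 at 7.91 and the 5 other arrays at 6.94 to 7.11, where the groups came close without overlapping.

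Of 15 genes of proton and lactate transport 2 fell and 1 rose. Tesc, which encodes tescalcin, a calcium-binding partner of the sodium-proton exchanger, fell by 2.18 ± 0.14 (log2, SE, limma, adjusted p = 0.000820). Its signals were 11.82, 11.47 and 11.73 in wild-type replicates 1, 4 and 6 and 9.63, 9.28 and 9.55 in DNMTs-Tg replicates 1, 5 and 6. A further Tesc probe set, 1418743_a_at, read 10.44, 10.29 and 10.70 in wild-type arrays and 4.47, 4.06 and 4.65 in DNMTs-Tg arrays, all of the latter dim, and was at least 55.2-fold lower. As with Car3, the probe sets of Tesc gave the same sign and different sizes, and their mean gave a difference of -4.13. Slc9a2, a sodium-proton exchanger, fell by 1.20 ± 0.10 (adjusted p = 0.00228), from 5.81 to 5.95 in wild-type arrays to 4.65 to 4.73 in DNMTs-Tg arrays, and stayed just above the 40th percentile on each array. Emb, which encodes embigin, a chaperone of monocarboxylate transporters, rose by 0.83 ± 0.17 (adjusted p = 0.0399). Tesc and Slc9a2 passed with any 1 array left out. Emb lost its call without DNMTs-Tg replicate 5 (adjusted p = 0.0978) and without wild-type replicate 1 (0.113), 4 (0.151) or 6 (0.137). It also lost the call when its probe sets were averaged (0.78, adjusted p = 0.168), where the pathway calls were 2 higher and 4 lower.

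Among 11 genes listed with the bicarbonate-fixing enzymes 1 rose and 1 fell. Hlcs, Btd and Mlycd are in this list although their products do not fix bicarbonate. Hlcs, the ligase that attaches biotin to carboxylases, rose by 1.10 ± 0.20 (SE, limma, adjusted p = 0.0289), from 5.37 to 5.88 in wild-type to 6.57 to 7.12 in DNMTs-Tg hearts. Cad, the pyrimidine synthesis enzyme that begins from bicarbonate, fell by 0.81 ± 0.15 (adjusted p = 0.0295), from 7.75 to 8.04 to 6.88 to 7.27. Of the 11, 8 lay below 0 and the median difference was -0.33, against 0.0055 over all genes. The list averaged -0.45 in DNMTs-Tg replicate 1 and -0.12 and -0.03 in replicates 5 and 6, against -0.07 to 0.07 in wild-type arrays. Of 22 hypoxia-inducible genes 1 rose, Mif, a cytokine gene, by 0.81 ± 0.14 (adjusted p = 0.0220), from 11.23 to 11.54 in wild-type to 11.97 to 12.35 in DNMTs-Tg hearts. The median of that list was 0.11. Probe sets of a gene also differed here in whether they passed, and these were chosen after their values were seen. In the fit over all probe sets 1418648_at of the oxygen sensor gene Egln3 fell by 1.22 (limma, adjusted p = 0.0307). The brightest Egln3 probe set differed by a similar -1.10 (adjusted p = 0.0618). Probe set 1423747_a_at of the kinase gene Pdk1 rose by 0.91 (adjusted p = 0.0257) and its brightest differed by 0.04 (adjusted p = 0.914). Hlcs, Cad and Mif each lost the call without DNMTs-Tg replicate 5 or any 1 wild-type replicate, with adjusted p of 0.0759 to 0.113.

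**Figure D4:**
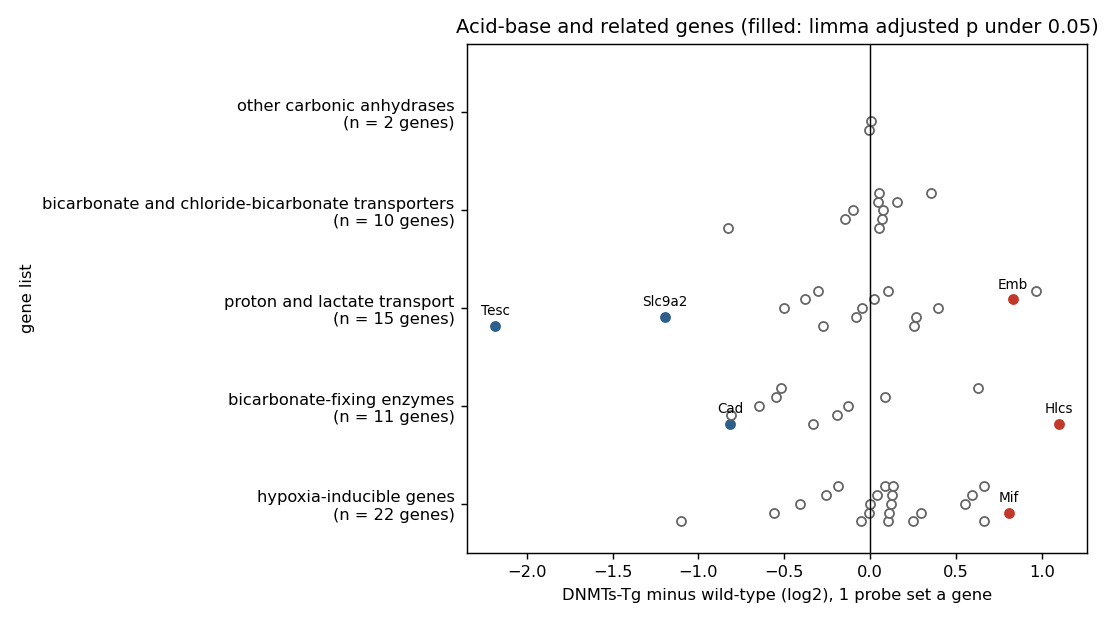
Difference between DNMTs-Tg and wild-type hearts (log2) for each tested gene of 5 lists, 1 point per gene and 1 probe set a gene, n = 3 arrays per group; filled points passed limma's adjusted p of 0.05, red higher and blue lower. The 6 filled points are Tesc at -2.18, Slc9a2 at -1.20, Cad at -0.81, Mif at 0.81, Emb at 0.83 and Hlcs at 1.10.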

How the data were processed

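For each of 6 mouse heart arrays the authors deposited a table of probe set values. The values were taken as log2 signals, since the deposited table runs from 2.06 to 14.7 with array medians of 5.28 to 5.33. Per the labels' protocols, total RNA was labelled with biotin by in vitro transcription after one-cycle cDNA synthesis. How the background was corrected, how arrays were normalized and with which software is not given in the sources used here. Nothing was renormalized.

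Probe sets were named from the platform annotation, with symbols updated to GRCm38.p6. limma 3.58.1 in R 4.3.3 (lmFit, eBayes with a trend, 2-sided) was fitted to all 45037 non-control probe sets without a filter, for the members. For other genes it was fitted to 13634 genes, each by its brightest probe set above the 40th percentile of its array on at least 3 arrays. Benjamini-Hochberg adjusted p under 0.05 was the threshold. Up to 4 genes past it were named from each list, otherwise the 2 with the smallest p, and the 5 genes closest to Car3. SE values come from limma. The steps were tested on simulated data. Members and lists were chosen with earlier results of these data known. The mice are separate animals, and 3 arrays per group limit the precision.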

Additional observations from a re-analysis of the deposited data

How the results depend on the processing

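The 3 member calls remained 3 in number under quantile normalization, a common median, eBayes without a trend and robust eBayes. They also remained 3 with the 40th percentile filter, and with 1 probe set a gene 2 genes, Car3 and Car4, were called. Car3 probe set 1449434_at met the filter, which the gene fit also uses, only through its wild-type arrays, where it was high. All these fits reuse the comparison that chose the family, so none is separate support for a member call. With array weights 5 member probe sets and 26 pathway genes were called, in place of 3 and 6, and 5472 probe sets and 4822 genes in all, in place of 952 and 735, and the cause was not tested. With 1 array left out the member calls ranged from 1 to 5 and the pathway calls from 2 to 9, while calls over all probe sets ranged from 167 to 2429 and over all genes from 123 to 1604. Fitted with the label number as a replicate block, limma called 1 member probe set (Car3, 1449434_at) and 0 pathway genes, 15 of which had an unadjusted p under 0.05, and 7 probe sets and 1 gene in all. Only the numbers 1 and 6 occur in both groups, and the deviations of same-numbered arrays correlated at -0.05 and -0.08, so nothing shows that the numbers pair the mice. No called member or pathway gene changed sign under any alternative. Car3 had no bound with the floor at the 20th percentile, which its DNMTs-Tg signals exceeded. Dim probe sets have no measured background, so small differences among them cannot be read as levels.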
